A study of Homo sapiens with 13 samples.

Results

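The autophagy machinery was followed in CCRF-CEM, a leukemia line of the T cell lineage, through 10 genes: ULK1, BECN1, WIPI1, ATG5, ATG7, ATG12, MAP1LC3B, GABARAPL1, SQSTM1 and TFEB. They were chosen by name, and every probe that the array design assigns to one of them was taken, which gave 16 of the 34127 probes that are not controls and 10 of the 25940 gene names. The parental population (CEM PA) was compared with a population grown out under rising concentrations of FK866 and described as resistant to 100 nM (CEM RES). FK866 blocks NAMPT, the enzyme that recycles nicotinamide into NAD+. Each line was either mock-treated with DMSO or exposed to 5 nM FK866 for 48 h before total RNA was hybridized to 1-colour Agilent arrays. There were 3 arrays of mock-treated CEM PA, 2 of CEM PA with FK866, 4 of mock-treated CEM RES and 4 of CEM RES with FK866. Per the study's Methods the resistant population was kept under 100 nM FK866, so that its mock-treated cells had met the drug before. Whether it is 1 clone is not settled by the sources used here.

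Autophagy encloses cytoplasm in a double membrane and delivers it to the lysosome. The ULK1 kinase complex starts the process, and the BECN1-containing lipid kinase makes the phosphoinositide that WIPI1 binds on the growing membrane. ATG7 is the E1-like enzyme that charges both ATG12, which is joined to ATG5, and the ATG8 family (MAP1LC3B and GABARAPL1), whose members are attached to membrane lipid. SQSTM1 (p62) is a receptor that ties ubiquitinated cargo to the ATG8 family, and TFEB is a transcription factor known for activating autophagy and lysosome genes. Messenger RNA levels do not measure the flow of material through this pathway.

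ULK1, BECN1, WIPI1 and SQSTM1 had a single probe, and the other 6 genes had a pair. The pairs matter here because those of TFEB gave opposite differences between the lines, and those of GABARAPL1 and ATG7 gave the same call. The pair of MAP1LC3B fell on either side of the threshold, and so did that of ATG12, whose second probe was dim. Shown for TFEB, MAP1LC3B, GABARAPL1 and ATG7 are the last 30 of the 60 bases of each probe, 5′ to 3′ and in lower case. An unbroken run of CAG and CAA triplets is in capitals. Exon boundaries were not used here, so whether a probe lies in coding sequence is not stated.
TFEB A_33_P3344618: ctttgtgcctttagtaaacactgtgctttg
TFEB A_33_P3398634: CAGCAGCAGCAGCAGCAGCAACAGCAGCAG
MAP1LC3B A_32_P220715: ttcatctaatcacagatcatcaaacagtag
MAP1LC3B A_23_P77630: tgtctgagttcaaactagtgcctgtgttgt
GABARAPL1 A_33_P3812669: tgaaaagggttcttcctcttgggggaaatc
GABARAPL1 A_24_P4816: tgtaagtttacagtattcctggggtttaat
ATG7 A_23_P143987: aagacttgactggtcttacattgctgcatc
ATG7 A_24_P944827: acaccatatcacagattgtctgtcagtaat

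On the hg19 build used by the array files, the TFEB probes lie on the minus strand at chr6:41651718-41651777 and chr6:41658820-41658879, with 7102 bases between their starts. The second of them ends in 10 consecutive CAG or CAA triplets and was the 1 probe among 34127 with a run of at least 8. Those of MAP1LC3B lie on the plus strand at chr16:87436758-87436817 and chr16:87437440-87437499, and those of GABARAPL1 at chr12:10375579-10375637 and chr12:10374676-10374735. The ATG7 probes lie farther apart, at chr3:11468321-11468380 and chr3:11598763-11598822. Different probes bind with different strength, so a difference in level between probes is not read as one in RNA. Mean signal did decide which probe of a gene stood for it.

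Signals were put on the log2 scale and quantile normalized over the 13 arrays. Between 26457 and 33239 of the 43118 spots that were not controls were well above background on an array, and 0 were saturated. Outlier spots numbered 773 on mock-treated CEM RES replicate 1 and between 195 and 344 on every other array. A probe entered the analysis when all arrays of 1 or more groups showed it well above background. All 16 did, and 15 of them were well above background on all 13 arrays. The exception was the second ATG12 probe (A_33_P3418394), which was well above background on 2 of 4 arrays in each CEM RES group. The CEM PA arrays were scanned in sessions 1 and 2 and all CEM RES arrays in session 3, so cell line and scan session cannot be told apart, whereas every session held both treatments. All 10 T-lineage markers, CD3D and LCK among them, were well above background on the 13 arrays. Of 3 epithelial markers, KRT8 and KRT18 were so on the 13 arrays too and EPCAM on 0, of 3 fibroblast markers 0 were so on all 13, and of 3 myeloid markers on the array CD14 was. Of the 10 T-lineage markers, 2 were higher and 1 lower in mock-treated CEM RES than in mock-treated CEM PA at an adjusted p under 0.05 with limma. Of all genes, 47.7% passed in this comparison. None of the tested epithelial and myeloid markers passed between the lines with limma (adjusted p = 0.979 for KRT8, 0.906 for KRT18 and 0.0875 for CD14). The B cell markers CD79A and CD79B were also well above background on the 13 arrays. Between the lines, mock-treated CEM RES over mock-treated CEM PA, CD79B was lower in CEM RES (log2 fold change -1.17, adjusted p = 0.000261 with limma), CD79A gave -0.42 (adjusted p = 0.0755) and the B cell marker MS4A1 0.32 (adjusted p = 0.64). The part of this in the differences below was not tested.

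**Figure D1:**
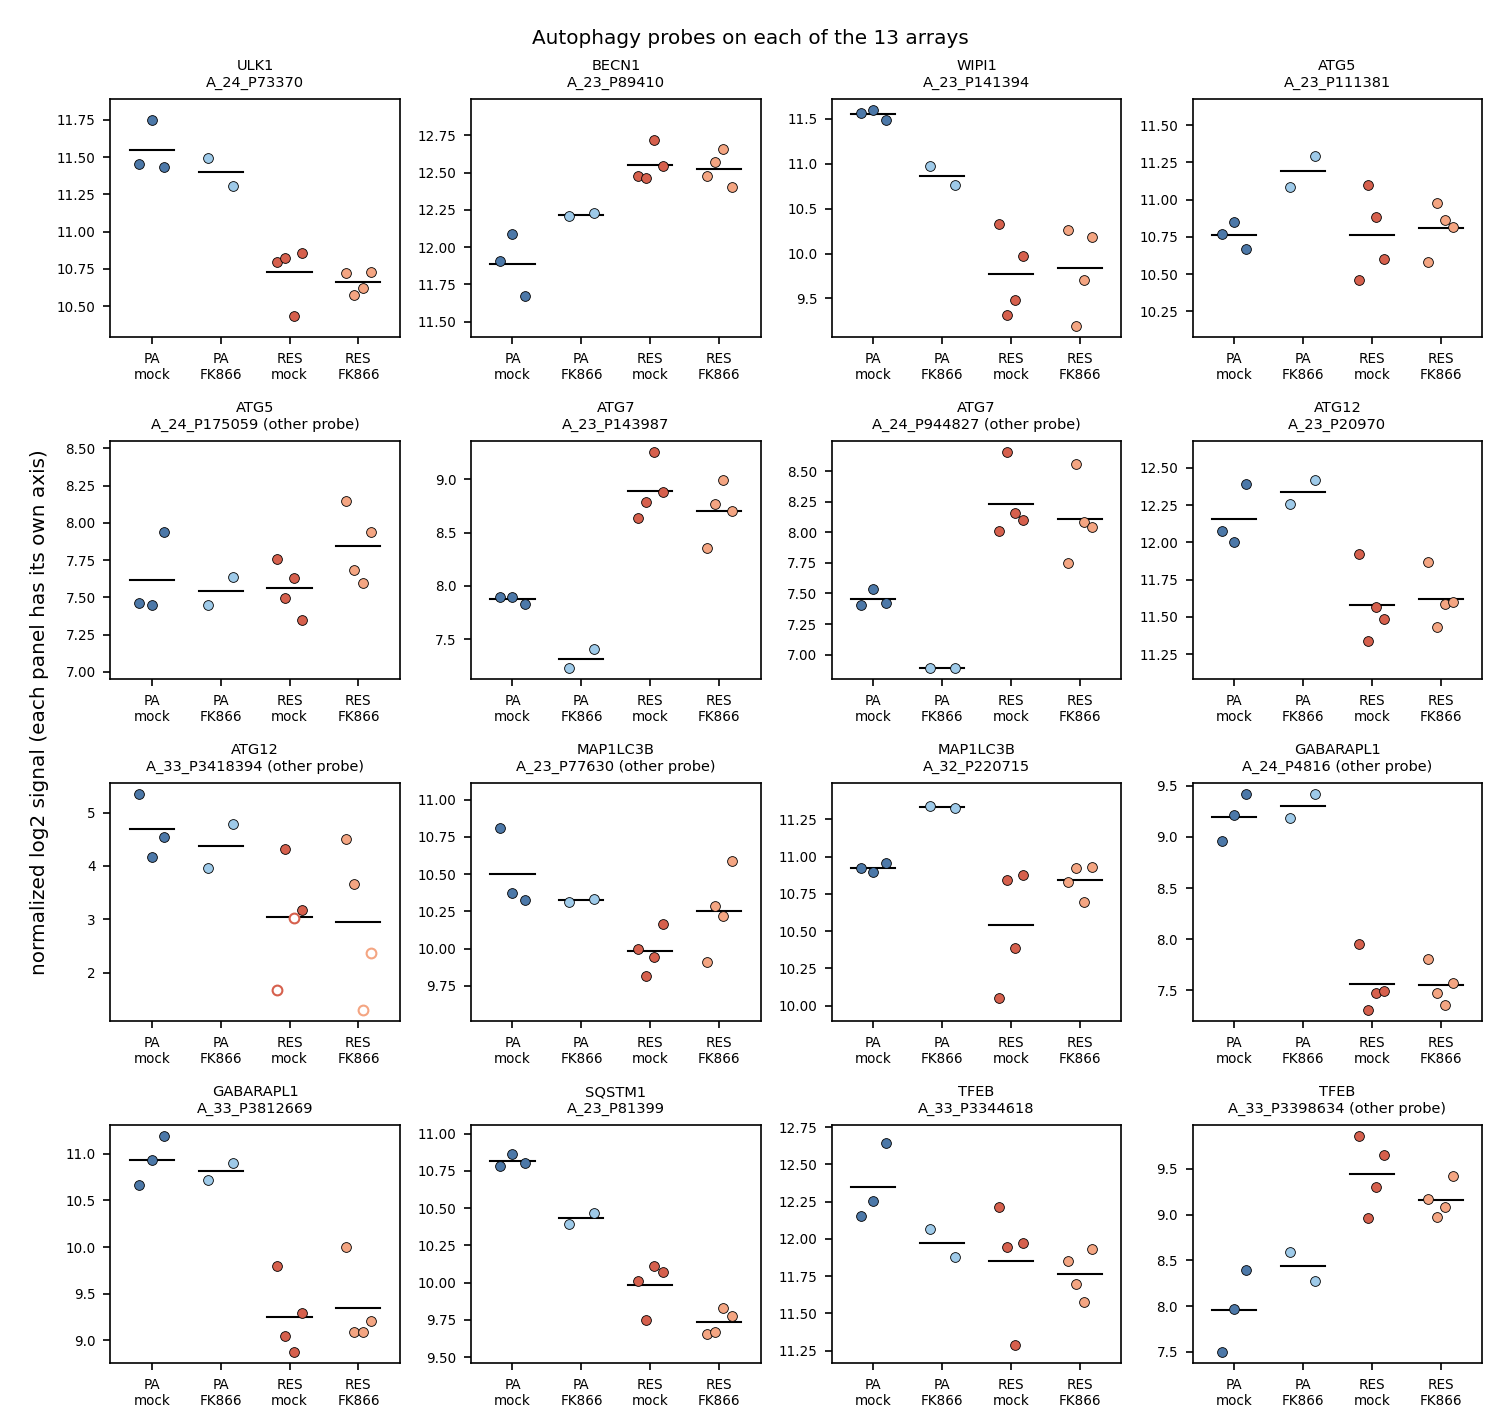
Normalized log2 signal of each of the 16 probes on each of the 13 arrays, in 1 panel per probe with its own vertical axis. The groups on the horizontal axis are CEM PA and CEM RES, mock-treated or with FK866. Points are arrays, horizontal bars are group means, and open points are arrays on which the probe was not well above background. The red CEM RES points lie below the blue CEM PA points for WIPI1, GABARAPL1, SQSTM1 and ULK1 and above them for ATG7 and BECN1.

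The first comparison asked how the resistant line differed from the parental line without the drug in the medium during the last 48 h. Of the 10 genes, 7 differed at a Benjamini-Hochberg adjusted p under 0.05, against 47.7% of all 17597 genes tested. WIPI1, GABARAPL1, SQSTM1, ULK1 and ATG12 were lower in CEM RES, and ATG7 and BECN1 were higher. Over all genes 23% were lower and 24.7% higher. The median of the 10 genes was -0.54 on the log2 scale, where that of all genes was 0.04. Scaling arrays to their 75th percentile instead moved the median of all genes to 0.16, and 2 genes were again higher and 5 lower. The arrays of the lines did not overlap for 8 of the 10 genes, which held for 48.9% of all genes. With the study's own double threshold (an absolute log2 fold change over 0.75 and an unadjusted p under 0.05), 5 of the 10 passed, against 34.6% of all genes. These are bulk RNA values, in which fewer cells expressing a gene and less RNA per cell cannot be told apart. All p values below are two-sided, from limma's moderated test in 1 model with the 4 groups, and adjusted over all genes, or over all kept probes where a second probe of a gene is given.

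ULK1, the kinase that starts the process, had log2 signals of 11.45, 11.75 and 11.44 in mock-treated CEM PA. In mock-treated CEM RES they were 10.80, 10.82, 10.43 and 10.86. The groups did not overlap, and ULK1 was 1.76-fold lower in CEM RES (log2 fold change -0.82, standard error 0.14, adjusted p = 0.000711 with limma). FK866 arrays of the same lines lay close to their mock arrays, at 11.50 and 11.31 in CEM PA and between 10.58 and 10.73 in CEM RES.

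BECN1, the scaffold of the class III phosphoinositide 3-kinase complex, was read at 11.91, 12.09 and 11.67 in mock-treated CEM PA. The mock-treated CEM RES arrays gave 12.48, 12.46, 12.72 and 12.54. All of them were above every parental mock array, a 1.58-fold higher level in CEM RES (log2 fold change 0.66, standard error 0.14, adjusted p = 0.00194 with limma).

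WIPI1, which reads the lipid made by that complex, had the widest range of group means among the 10 genes. It was read at 11.57, 11.60 and 11.48 in mock-treated CEM PA and at 10.33, 9.31, 9.48 and 9.98 in mock-treated CEM RES. The level in CEM RES was 3.42-fold lower (log2 fold change -1.77, standard error 0.28, adjusted p = 0.000345 with limma). The parental mock arrays had an SD of 0.06 (n = 3) and the resistant ones an SD of 0.47 (n = 4), and with single arrays left out the value ranged from -1.96 to -1.62. With FK866 the CEM RES arrays stood at 10.26, 9.19, 9.71 and 10.18, and replicates 1 and 4 were above replicates 2 and 3 in both treatments.

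Among the conjugation genes, ATG7 was higher in CEM RES, ATG12 was lower, and ATG5 did not pass. The first ATG7 probe (A_23_P143987) was read at 7.90, 7.89 and 7.83 in mock-treated CEM PA and at 8.63, 8.79, 9.26 and 8.88 in mock-treated CEM RES. ATG7 was thus 2.02-fold higher in CEM RES (log2 fold change 1.01, standard error 0.18, adjusted p = 0.000672 with limma). The second probe (A_24_P944827), 130442 bases from the first, gave 0.78 with a standard error of 0.20 and an adjusted p of 0.0071 over all probes. Neither probe's groups overlapped.

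ATG12, the ubiquitin-like protein that ATG7 charges, was read with A_23_P20970 at 12.07, 12.00 and 12.39 in mock-treated CEM PA. Mock-treated CEM RES gave 11.93, 11.34, 11.56 and 11.48. The groups did not overlap, and the log2 fold change was -0.58 (standard error 0.17, adjusted p = 0.0146 with limma). Leaving out mock-treated CEM PA replicate 3, the highest of them, gave -0.46 with an adjusted p of 0.067. The second, dim probe gave -1.64 with a standard error of 0.72 and an adjusted p of 0.0774.

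ATG5 is the partner of ATG12. Its first probe (A_23_P111381) averaged 10.76 ± 0.09 (SD, n = 3) in mock-treated CEM PA and 10.76 ± 0.29 (SD, n = 4) in mock-treated CEM RES. The 95% confidence interval of the log2 difference ran from -0.36 to 0.36, and differences within it were not excluded by these arrays. The second probe (A_24_P175059) gave -0.06 with an adjusted p of 0.809.

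In the ATG8 family, GABARAPL1 was lower in CEM RES with both of its probes. A_33_P3812669 was read at 10.67, 10.93 and 11.19 in mock-treated CEM PA and at 9.79, 9.04, 8.87 and 9.29 in mock-treated CEM RES. GABARAPL1 was 3.21-fold lower in CEM RES (log2 fold change -1.68, standard error 0.26, adjusted p = 0.000315 with limma). For A_24_P4816 the readings were 8.96, 9.21 and 9.42 against 7.96, 7.30, 7.48 and 7.50. The log2 fold change was -1.64 with a standard error of 0.18 and an adjusted p of 3.35e-05 over all probes with limma. The 2 probes, 903 bases apart, thus differed by less than their standard errors.

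MAP1LC3B, the ATG8 protein most used to count autophagosomes, gave a smaller and less certain difference. A_32_P220715 was read at 10.93, 10.90 and 10.95 in mock-treated CEM PA and at 10.05, 10.85, 10.39 and 10.88 in mock-treated CEM RES (log2 fold change -0.39, standard error 0.19, adjusted p = 0.108 with limma). A_23_P77630 was read at 10.81, 10.37 and 10.33 against 10.00, 9.82, 9.94 and 10.17, with a log2 fold change of -0.52, a standard error of 0.18 and an adjusted p of 0.0296 over all probes. Both probes were lower on every resistant mock array than on any parental mock array, and 1 of the 2 passed the test. The mean of both probes passed as well, at -0.45 with an adjusted p of 0.0267.

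SQSTM1, the cargo receptor, was read at 10.78, 10.86 and 10.80 in mock-treated CEM PA. Mock-treated CEM RES gave 10.01, 9.75, 10.11 and 10.07. The level was 1.78-fold lower in CEM RES (log2 fold change -0.83, standard error 0.12, adjusted p = 0.000248 with limma). This was the lowest adjusted p among the probes that stand for the 10 genes. Over all kept probes, limma gave SQSTM1 0.000278 and the second GABARAPL1 probe 3.35e-05. Across the 4 groups the SQSTM1 means were 10.81 in mock-treated CEM PA, 10.43 in CEM PA with FK866, 9.99 in mock-treated CEM RES and 9.73 in CEM RES with FK866. Of the neighbours in this order, the arrays of the 2 CEM RES groups overlapped and the other neighbours did not.

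TFEB gave no single answer. The probe that stood for the gene, A_33_P3344618, was read at 12.15, 12.26 and 12.64 in mock-treated CEM PA and at 12.21, 11.95, 11.29 and 11.97 in mock-treated CEM RES, with overlapping groups (log2 fold change -0.50, standard error 0.21, adjusted p = 0.0698 with limma). A_33_P3398634, the probe with the CAG run, was read at 7.49, 7.97 and 8.39 against 9.86, 8.97, 9.30 and 9.65. All resistant mock arrays were above all parental mock arrays there (log2 fold change 1.49, standard error 0.25, adjusted p = 0.000427 over all probes), a 2.81-fold higher signal. No direction is therefore given for TFEB. The mean of both probes gave 0.50 with an adjusted p of 0.0675, opposite in sign to A_33_P3344618. By probe rather than by gene, 4 of the 16 were higher in CEM RES and 7 lower at an adjusted p under 0.05, against 47.6% of all kept probes called in either direction.

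**Figure D2:**
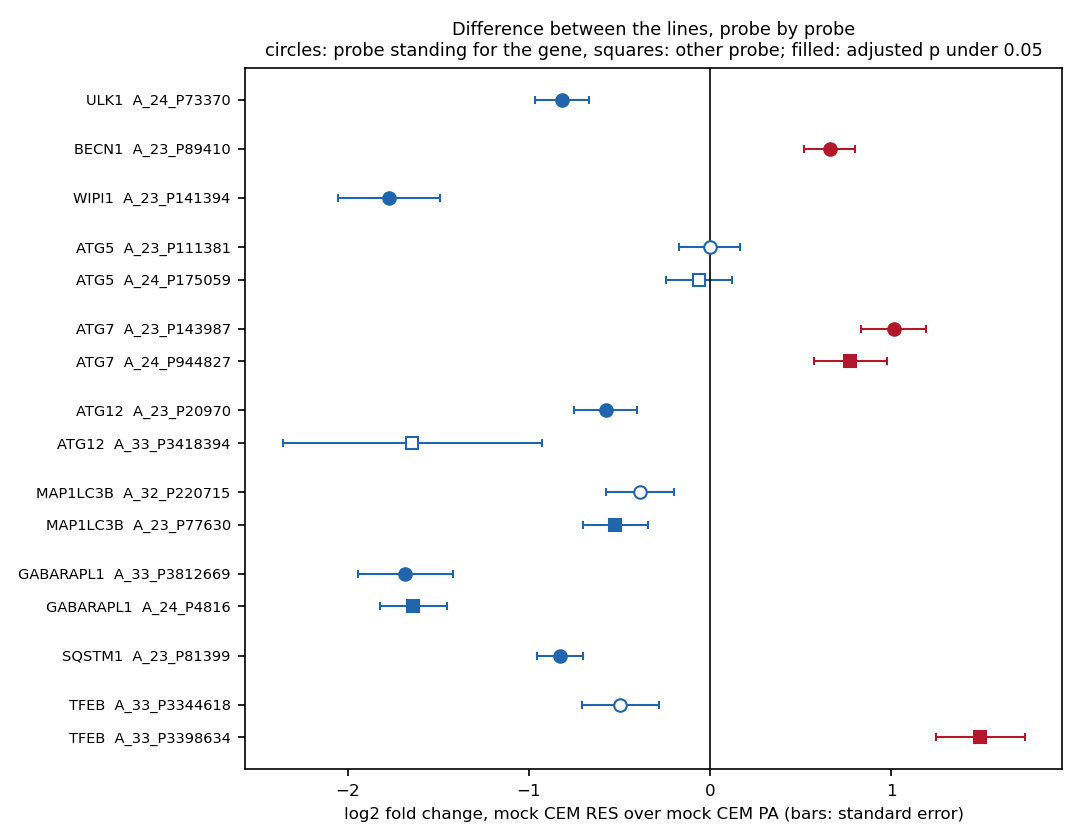
Log2 fold change of mock-treated CEM RES over mock-treated CEM PA on the horizontal axis, with standard error bars, for each of the 16 probes. Circles are the probes that stand for their genes, squares are second probes, filled symbols have an adjusted p under 0.05 over all kept probes, blue is lower and red higher in CEM RES. GABARAPL1 and ATG7 have both symbols filled on the same side, and the TFEB symbols lie at -0.50 and 1.49.

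The second comparison asked what 48 h of FK866 did in the parental line. With 2 arrays against 3, 0 of the 10 genes passed an adjusted p of 0.05 with limma, where 0.511% of all genes did, and 2 of the 10 had an unadjusted p under 0.05 against 13.5% of all genes. The median of the 10 log2 fold changes was -0.13 and that of all genes -0.02. For 7 of the 10 genes the FK866 and mock arrays did not overlap, and the same held for 34.4% of all genes. With the replicate number fitted as a block, 503 genes passed in place of 90, and still 0 of the 10.

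ATG7 and SQSTM1 were the genes with an unadjusted p under 0.05. The ATG7 probe A_23_P143987 was read at 7.23 and 7.41 with FK866, below the mock arrays given above, and the log2 fold change was -0.56 (standard error 0.21, adjusted p = 0.274 with limma). A_24_P944827 was read at 6.89 and 6.89 with FK866 and at 7.41, 7.54 and 7.42 without, a log2 fold change of -0.56 as well, with an adjusted p of 0.299 over all probes. Both probes thus gave the same size, which did not pass the adjustment. The line difference of ATG7, which shares the mock-treated CEM PA arrays with this comparison, was 1.01.

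For SQSTM1 the FK866 arrays of CEM PA gave 10.39 and 10.47, both below the 3 mock arrays (log2 fold change -0.38, standard error 0.15, adjusted p = 0.284 with limma). WIPI1 was read at 10.98 and 10.76 with FK866, where the lowest mock array stood at 11.48, and its log2 fold change of -0.68 had a confidence interval from -1.41 to 0.05 and an adjusted p of 0.409. BECN1 was read at 12.21 and 12.23, above the 3 mock arrays, with a log2 fold change of 0.33 and an adjusted p of 0.414. None of these values passed, and the intervals of WIPI1 and BECN1 include 0.

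Of the 6 genes with a pair of probes, ATG7 alone gave the same sign with both in this comparison. For MAP1LC3B the log2 fold changes were 0.41 and -0.18, for ATG5 0.43 and -0.07, and for TFEB -0.38 and 0.48. GABARAPL1 gave -0.12 and 0.10, and ATG12 gave 0.18 and, with its dim probe, -0.32. None of these had an adjusted p under 0.05, so no direction is given for them. Within scan sessions 1 and 2, 8 of the 10 genes had 1 sign, and ULK1 (0.045 and -0.28) and GABARAPL1 (0.053 and -0.16) had both. ULK1, with overlapping groups, gave -0.14.

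In CEM RES, 0 of the 10 genes passed with limma when FK866 was set against mock, as did 0% of all genes, and 1 of the 10 had an unadjusted p under 0.05 against 4.78% of all genes. That gene was SQSTM1, read at 9.65, 9.67, 9.83 and 9.78 with FK866 (log2 fold change -0.25, standard error 0.12, adjusted p = 0.996 with limma). When limma was fitted to all kept probes, the same SQSTM1 probe had an unadjusted p of 0.054. For 0 of the 10 genes were the 4 FK866 arrays apart from the 4 mock arrays, which held for 2.53% of all genes. The median log2 fold change was 0.01, and the values ran from -0.25 for SQSTM1 to 0.30 for MAP1LC3B. The confidence interval of MAP1LC3B went from -0.07 to 0.68, and that of ULK1 from -0.36 to 0.22. Slides 5 and 6 each held 2 arrays per treatment, and the sign differed between them for 8 of the 10 genes, for example GABARAPL1 at 0.47 and -0.27 and WIPI1 at 0.26 and -0.14. SQSTM1 (-0.35 and -0.16) and MAP1LC3B (0.13 and 0.48) were the genes with 1 sign on both slides. With arrays of equal replicate number taken as pairs, 3 of the 10 genes had the same sign in all 4 pairs, against 18.6% of all genes. FK866 minus mock was -0.36, -0.079, -0.28 and -0.29 for SQSTM1 and -0.28, -0.023, -0.26 and -0.18 for ATG7. MAP1LC3B, read with A_32_P220715, was above its mock array in each pair. Its other probe (A_23_P77630) was below mock in the pair of replicate 1, at 9.91 with FK866 and 10.00 with mock, and above mock in the other pairs. This count by pairs was made after the values were seen. With the replicate number as a block, limma gave SQSTM1 an adjusted p of 0.464 and ATG7 one of 0.511.

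Whether the lines responded differently was tested as the difference between both FK866 effects. It passed for 0 of the 10 genes with limma, against 0.131% of all genes, and 0 of the 10 had an unadjusted p under 0.05, against 11.1% of all genes. Among the probes that stand for the genes, WIPI1 had the widest difference, 0.74 on the log2 scale. Its confidence interval ran from -0.18 to 1.66, with an adjusted p of 0.548. The second TFEB probe (A_33_P3398634) gave -0.76, with an adjusted p of 0.432 over all probes with limma, where the first TFEB probe gave 0.29. For SQSTM1 the difference was 0.13, from -0.28 to 0.54, so the data do not separate the negative values of both lines.

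**Figure D3:**
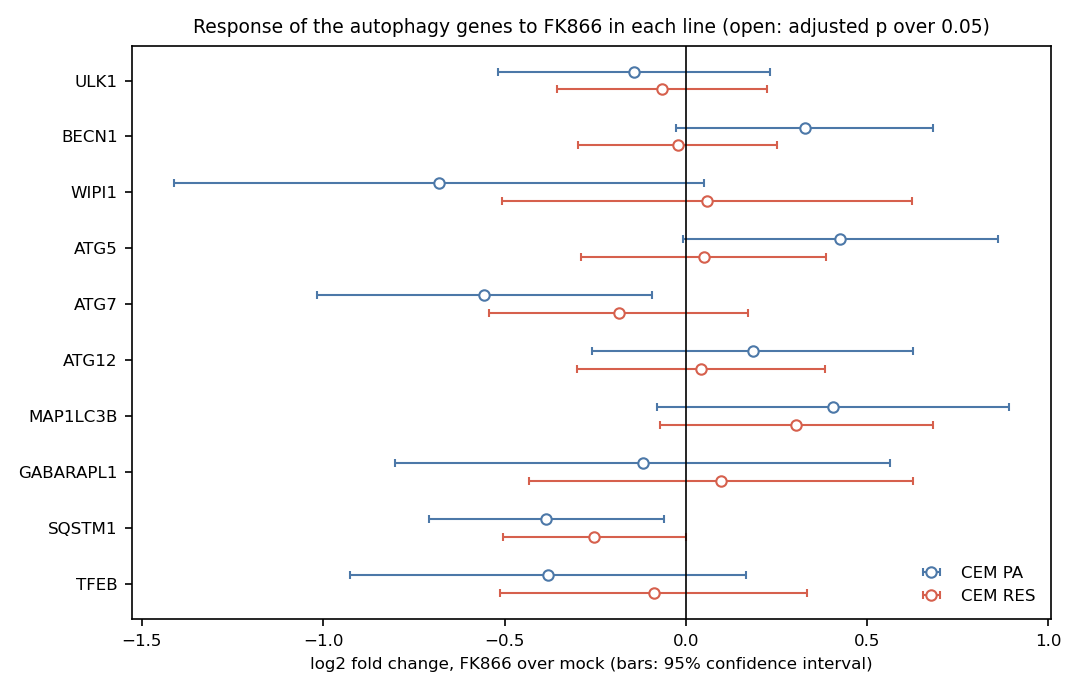
Log2 fold change of FK866 over mock on the horizontal axis for each of the 10 genes, in CEM PA (blue) and CEM RES (red), with 95% confidence intervals. Open symbols have an adjusted p over 0.05, which holds for all 20 values. The CEM PA intervals of ATG7 and SQSTM1 lie below 0, as does the CEM RES interval of SQSTM1, with an upper end of -0.00049.

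The rest of the pathway was read through 90 genes in 9 lists by role, which include the 10 genes, and 84 of them were tested. Without FK866, 9 were higher and 30 lower in CEM RES at an adjusted p under 0.05, or 46.4% of those tested, close to the 47.7% of all genes. The median over the lists was -0.37, beside 0.04 for all genes. With FK866, 0 of the 84 passed in CEM PA and 0 in CEM RES with limma, and 8 and 3 had an unadjusted p under 0.05, or 9.52% and 3.57% against 13.5% and 4.78% of all genes.

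The counts that follow are to be read against the 47.7% of all genes called between the lines, 24.7% higher and 23% lower. Upstream in the pathway, 1 of 4 tested ULK1 complex genes (25%) passed, which was ULK1 itself. Of the 8 class III phosphoinositide 3-kinase genes, 50% were called, of which BECN1 was higher, and PIK3C3, SH3GLB1 and KIAA0226 (Rubicon, a known inhibitor of autophagy) were lower. PIK3C3, the catalytic subunit that BECN1 holds, stood at -1.40 (standard error 0.35) on the log2 scale, opposite in sign to BECN1. SH3GLB1, a membrane-bending partner of that complex, stood at -1.07 (standard error 0.14). Among the 10 genes for ATG9, ATG2 and WIPI proteins 4 (40%) were lower and 0 higher, with ATG2B, a lipid transfer protein, at -1.12 and WDR45L, another WIPI protein, at -1.04 beside WIPI1.

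Of the 11 conjugation genes 2 were higher and 5 lower, which makes 63.6% called. ATG3, the E2-like enzyme that takes ATG8 proteins over from ATG7, was higher by 0.60 (standard error 0.16), as ATG7 was. The proteases ATG4C and ATG4D, which trim ATG8 proteins, stood at -1.54 and -0.74, and ATG16L2 at -1.32. In the ATG8 family, GABARAP was higher by 1.10 (standard error 0.13, adjusted p = 5.87e-05 with limma), while its close relative GABARAPL1 was lower by 1.68. The other 3 tested members did not pass with the probes that stand for them. For MAP1LC3B, 1 of these 3, the second probe did pass, as given above. Among 12 cargo receptors 4 were lower and 0 higher, a share of 33.3% and below that of all genes, and OPTN, a receptor of damaged mitochondria and bacteria, stood at -1.68 (standard error 0.34). FUNDC1, a receptor on mitochondria, stood at -0.81, and NCOA4, the receptor of ferritin, at -0.46.

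Downstream, LAMP1, an abundant glycoprotein of the lysosomal membrane, was 3.06-fold lower in CEM RES (log2 fold change -1.62, standard error 0.17), and RAB7A, a GTPase of late endosomes, stood at -0.81. SNAP29, a SNARE protein for fusion with the lysosome, was higher by 0.84 among the 9 fusion genes, of which 3 were lower. FOXO1 and FOXO3, transcription factors that also act on autophagy genes, stood at -0.88 and -0.86. Among 20 tested lysosomal genes 4 were higher and 7 lower, or 55% beside the 47.7% of all genes. TPP1, a lysosomal peptidase, was 5.31-fold higher in CEM RES, and the glycosidase GAA was 3.78-fold, the membrane protein SCARB2 3.49-fold and the glucuronidase GUSB 3.25-fold lower. The median of the 20 lysosomal genes was -0.10.

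**Figure D4:**
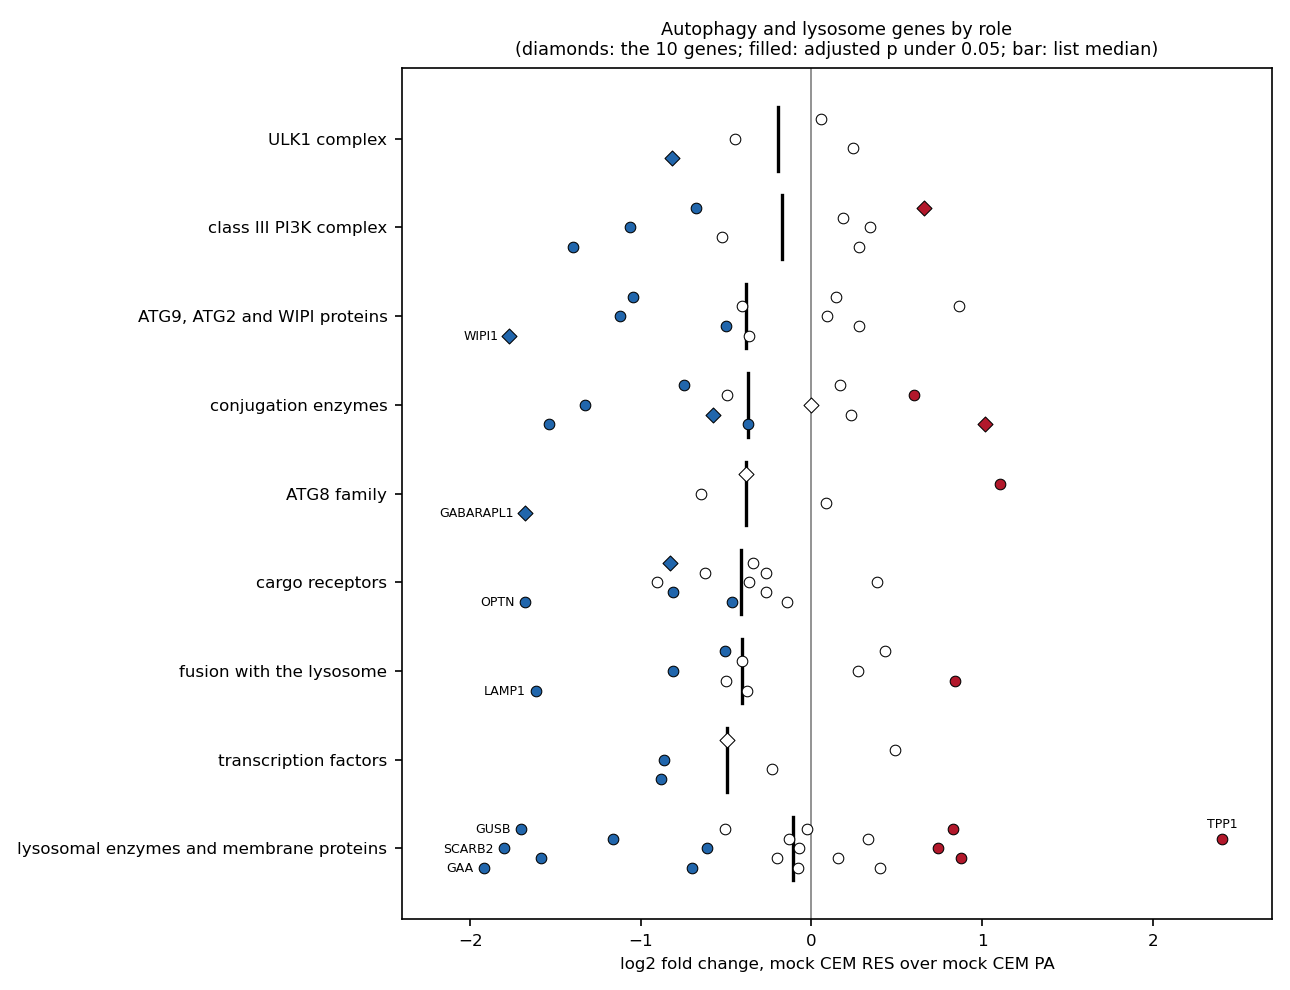
Log2 fold change of mock-treated CEM RES over mock-treated CEM PA on the horizontal axis for the 84 tested genes of the pathway, by role on the vertical axis. Diamonds are the 10 genes followed here, circles other genes, filled symbols have an adjusted p under 0.05, blue is lower and red higher in CEM RES, and black bars are list medians. Blue symbols outnumber red ones, 30 to 9, and TPP1 lies farthest to the right at 2.41.

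The genes whose profile over the 13 arrays was most like that of WIPI1, each centred on its own mean, were MICALL2, GSTA4 and DNAJB5. Their root mean square differences from the WIPI1 profile were 0.13, 0.13 and 0.15 on the log2 scale. MICALL2, for example, averaged 13.26 in mock-treated CEM PA, 12.60 in CEM PA with FK866, 11.52 in mock-treated CEM RES and 11.60 in CEM RES with FK866.

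The promoters of the 10 genes were searched for binding motifs because WIPI1 and GABARAPL1, the lowest of the 10 genes in CEM RES relative to CEM PA, are textbook members of the pathway that TFEB and FOXO factors act on. RefSeq gives 15 promoter windows for the 10 genes in the GRCh38.p14 build, each from 250 bases before to 50 bases after a start. The E-box CACGTG, the core of the element that TFEB binds, was found on neither strand of any of the 15, and 7.26% of all 35116 windows hold it. TGTTTAC, a FOXO motif, was also found in none of the 15, and in 3.42% of all windows on either strand. TGACGTCA, the cAMP response element, was found in the GABARAPL1 window alone, and in 1.85% of all windows. The 250 bases before the starts of GABARAPL1 (chr12:10212627-10212876, plus strand) and WIPI1 (chr17:68457497-68457746, minus strand) are shown with this motif in capitals.
GABARAPL1: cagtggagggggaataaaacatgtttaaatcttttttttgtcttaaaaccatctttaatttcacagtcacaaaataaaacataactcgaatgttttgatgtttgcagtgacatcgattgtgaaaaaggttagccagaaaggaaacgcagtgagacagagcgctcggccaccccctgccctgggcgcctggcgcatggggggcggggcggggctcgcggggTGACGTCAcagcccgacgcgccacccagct
WIPI1: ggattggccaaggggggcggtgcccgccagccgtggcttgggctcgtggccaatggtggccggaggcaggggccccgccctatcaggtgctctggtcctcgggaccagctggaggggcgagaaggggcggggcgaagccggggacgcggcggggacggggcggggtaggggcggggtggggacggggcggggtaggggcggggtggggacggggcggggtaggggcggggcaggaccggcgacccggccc
These promoters differ in composition, with 51.6% G and C for GABARAPL1 and 79.6% for WIPI1. A motif in such a window is a description of its letters and not a site shown to be bound, and its absence says nothing of sequence outside the window.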

How the data were processed

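The authors deposited for each array the spot intensity written by Feature Extraction (version 10.7.7.1 in the submitters' notes, 10.7.3.1 in the file headers), background-corrected but before any normalization across arrays. A deposited table of their quantile normalized log2 values served as an alternative. Outlier spots were set to missing, log2 intensities were quantile normalized and the spots of a probe averaged. A probe counted as well above background on an array when at least 50% of its spots did, and 22754 of 34127 probes were so on every array of at least 1 group. The kept probe with the highest mean stood for its gene. The 4 groups were fitted in 1 model with limma 3.58.1 in R 4.3.3 (prior degrees of freedom 3.16), with Benjamini-Hochberg adjustment over 17597 genes. Python 3.11.15 with pandas 2.3.3 and numpy 2.4.6 read the files, and matplotlib 3.10.9 drew the figures. The procedure was tested on simulated data.

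The members and lists were chosen with earlier results of these data known. Named beyond the 10 genes are up to 4 genes of each list with the largest changes among those past the threshold, and the 3 genes most like the member with the widest range, not all of them printed. Equal replicate numbers were checked for pairing through the correlation across genes of their deviations from the group means. It was 0.22, 0.39, 0.48 and 0.30 for the CEM RES pairs and 0.44 and 0.34 for those of CEM PA. Unequal numbers gave -0.30 to 0.07 in CEM RES. The replicate number was therefore also fitted as a block. In CEM PA, mock replicate 3 with FK866 replicate 2, of unequal number, gave 0.23. With 2 FK866 arrays there, their deviations mirror each other. Equal numbers of CEM PA also shared a scan session, so pairing and session cannot be told apart in that line. Precision is set by the number of arrays and by how far a signal lies above background. Levels of other transcripts and the other experiments of the study were not analysed here. The result for 1 marker gene is not reported here.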

Additional observations from a re-analysis of the deposited data

Results flagged for a closer look

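In 2 of the 32 groups of 4 arrays checked, 1 array stood far from the others by Dixon's criterion, and chance flags about 1 group in 20. For ULK1 (A_24_P73370), mock-treated CEM RES replicate 3 was read at 10.43, with the nearest of the others at 10.80. For GABARAPL1 (A_33_P3812669), CEM RES with FK866 replicate 1 was read at 10.00, with the nearest of the others at 9.20. Mock-treated CEM RES replicate 1 was also the highest of its group for this probe, at 9.79.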

How the results depend on the processing

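The number of the 10 genes past the threshold was 0 under every alternative run for both FK866 comparisons and for the difference between them. Between the lines it was 7 under 75th percentile scaling, normexp background correction, both other filters and kept outlier spots. It was also 7 with a fit of only the groups compared, the replicate block and the session block. With the mean of the probes and with the deposited log2 table it was 8, and with single arrays left out 6 to 8. No session held both lines and slide was not fitted in this comparison, so the session block cannot remove a session effect from it. The replicate number as a block changed no call of the 10 genes. Over all genes in CEM PA, however, FK866 calls went from 90 to 503 with this block, 223 with normexp, 158 with the filter on all arrays, 37 without a filter, 43 with the mean of the probes, 47 with the session block, 0 with CEM PA fitted alone and 12 to 91 with single arrays left out. For the difference between the responses 23 calls over all genes became 7 with the mean of the probes, 9 without a filter, 15 with the session block and 1 to 19 with single arrays left out. The causes were not tested.

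The values that turned sign under an alternative fit or with an array left out were these. Between the lines, TFEB was 0.50 with the mean of the probes, and ATG5 was 0.00078 with the session block and -0.11 to 0.098 with single arrays left out. With the mean of the probes, FK866 gave -0.066 for ATG12 and 0.051 for TFEB in CEM PA and -0.024 for ATG12 in CEM RES, and the difference between responses was 0.042 for ATG12, 0.17 for MAP1LC3B and -0.24 for TFEB. GABARAPL1 in CEM PA was 0.013 with the replicate block and -0.25 to 0.013 with single arrays left out. In CEM RES, FK866 gave 0.013 for BECN1 with the deposited table and -0.0056 for WIPI1 with normexp, which also gave 0.069 for the MAP1LC3B difference. With single arrays left out, FK866 in CEM RES ranged from -0.066 to 0.035 for BECN1, -0.095 to 0.27 for WIPI1, -0.051 to 0.16 for ATG5, -0.040 to 0.16 for ATG12, -0.12 to 0.28 for GABARAPL1 and -0.28 to 0.031 for TFEB. The difference between responses ranged from -0.025 to 0.17 for ULK1, -0.26 to 0.016 for MAP1LC3B and -0.0026 to 0.40 for GABARAPL1.

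Between the lines TFEB passed at -0.55 with the deposited table and at -0.61 without mock-treated CEM RES replicate 1, and MAP1LC3B at -0.50 without replicate 4 of that group. A group left with 1 array was given the spread of the other groups. Within scan sessions the FK866 value in CEM PA turned sign for ULK1 (0.045 in session 1) and GABARAPL1, and in CEM RES 8 of the 10 genes had opposite signs on the 2 slides, ATG7 (-0.39 and 0.022) among them. The number of arrays limits the precision.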
